A study of Mus musculus with 5 samples.

Results

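The genes described here encode the proteins of the cytosolic ribosome, measured in group 2 innate lymphoid cells (ILC2s) of mouse lung. They were chosen by symbol: a gene was taken when the array annotation gave its probe set a single symbol made of Rpl or Rps and a number, with an optional letter a, x, l or y, or the symbol Rplp0, Rplp1, Rplp2 or Rpsa. Of 22180 genes with such a probe set, 64 met the rule, 37 of the large subunit, 24 of the small subunit including Rpsa, and 3 of the stalk. The rule uses symbols only, and each gene was read from its probe set with the highest mean over the 5 arrays. The rule was set with earlier results of these data known. RefSeq lists 83 genes whose symbols match, and the 19 others are not among the 64. Of these, 12 lie on probe sets that carry several symbols, among them Rps2, Rpl13a and Rpl10, and the other 7 were not analysed here. RefSeq lists Rpl6l as a pseudogene and Rps4l as a transcribed pseudogene, and both meet the rule.

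Each ribosome holds one copy of nearly every one of these proteins, bound to ribosomal RNA in a small subunit that reads the messenger RNA and a large subunit that joins amino acids. The stalk proteins recruit the GTPases that drive each round of elongation. Their messenger RNAs are among the most abundant of a cell, and those of vertebrates typically begin with a C followed by a run of pyrimidines, the 5′ terminal oligopyrimidine motif, through which mTOR signalling sets how strongly they are translated. Lymphocytes make more ribosomes when they grow and divide, and a resting tissue lymphocyte keeps a large standing pool of these messengers.

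The cells came from lungs of adult naive male mice. The 3 wild-type arrays and the 2 IL-33 knockout arrays are biological replicates according to the labels. Strain, the form of the knockout allele, the sorting gate and whether animals were pooled are not given in the sources used here. IL-33 is an epithelial and stromal cytokine that activates ILC2s, and the design asks which transcripts differ in ILC2s of mice that lack it.

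Values are log2 signals, so a difference of 1 is 2-fold, and differences are knockout minus wild type. Array medians lay between 4.29 and 4.33. Of 16 ILC2 markers 14 were measured and none lay below the median gene on every array. Their summed linear signal was 9097 to 9705 in wild type and 8848 and 8934 in the knockout arrays. Of the 14, 10 had a difference below 0 and 4 above. Both knockout arrays exceeded every wild-type array in 3 (21.4%) and lay below every one in 2 (14.3%), beside 11.6% and 6.32% of all genes tested. Knockout array 2 stood apart. Its Xist signal was 7.91 against 2.35 to 3.10 on the other arrays, against the male label, while its Y-linked Eif2s3y and Kdm5d read 6.14 and 4.79, the lowest of the 5 arrays, and Uty read 7.17, the highest. The main counts of members whose groups do not overlap, and the named differences that change most, are given with and without it.

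The ribosomal protein genes can be shown by the sequence around their start, where the pyrimidine run would lie. Windows of 30 bases, 15 before and 15 from a RefSeq start, were searched for the longest unbroken run of C or T. They were read from assembly GRCm38.p6 on the gene's own strand, 5′ to 3′, and 49 of the 64 genes had an entry. Where a gene had several starts, as Rps24, Rpl10a and Rpl3l with 2 each, the window with the longest run was kept. The opposite strand was not searched, since the motif belongs to the transcript. A run of at least 8 bases was found in 22 of the 49 (44.9%), against 13.9% of the 27025 genes in the same table, and the median longest run was 7 bases against 5. The windows below show the 8 members named as higher that had an entry, then 3 bright members whose groups overlapped (Rps6, Rpl15 and Rps9), then 2 paralogous copies; capitals mark the longest run of C or T.

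Rps24 (chr14:24490663-24490692, plus strand): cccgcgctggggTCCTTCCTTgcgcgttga
Rps18 (chr17:33955651-33955680, minus strand): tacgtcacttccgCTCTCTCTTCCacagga
Rps26 (chr10:128626492-128626521, minus strand): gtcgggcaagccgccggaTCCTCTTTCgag
Rpl10a (chr17:28328456-28328485, plus strand): gtggcgCCCCCCCagcggccgcaaactgca
Rpl37a (chr1:72711245-72711274, plus strand): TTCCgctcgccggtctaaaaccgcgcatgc
Rps28 (chr17:33824548-33824577, minus strand): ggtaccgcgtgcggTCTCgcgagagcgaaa
Rps13 (chr7:116334176-116334205, minus strand): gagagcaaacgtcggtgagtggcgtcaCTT
Rpl27 (chr11:101442230-101442259, plus strand): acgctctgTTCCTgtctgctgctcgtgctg
Rps6 (chr4:86857353-86857382, minus strand): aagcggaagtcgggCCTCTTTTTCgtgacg
Rpl15 (chr14:18270972-18271001, minus strand): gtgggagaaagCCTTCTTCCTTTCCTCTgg
Rps9 (chr7:3704026-3704055, plus strand): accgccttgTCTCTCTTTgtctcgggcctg
Rpl3l (chr17:24727811-24727840, plus strand): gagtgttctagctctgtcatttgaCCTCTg
Rpl10l (chr12:66284387-66284416, minus strand): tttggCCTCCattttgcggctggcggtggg

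Rps24, Rps18 and Rps26, with the largest differences of the members tested, carry runs of 9, 11 and 9 bases at or near the start. Rpl10a carries a run of 7, all C, and Rpl37a, Rps28, Rps13 and Rpl27 show no run above 5 bases in the window. Rps6 and Rpl15, whose groups overlapped, carry runs of 10 and 17. Of the 14 members named as higher below, 8 had an entry and 3 of these (37.5%) held a run of at least 8, against 19 of the other 41 (46.3%). The list was capped at 14, so Rpl35, which met the same criteria and carries a run of 18, counts among the other 41. The windows depend on the annotated start, which can lie some bases from the start used in these cells.

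Signals of the ribosomal protein genes spanned nearly the whole scale of the array, with 53 of 64 above the median gene at 4.48. Of the 64, 24 had a mean of 10 or more over the 5 arrays, 8 lay between 8 and 10, 23 between 4 and 8, and 9 below 4. Of the 222 genes in the top 1% of the array, 27 were ribosomal protein genes. Rplp1, a stalk protein, had the highest mean of the members at 12.96, and Rpl10l, a paralog of Rpl10 used mainly in the male germ line, the lowest at 1.83. Signals of different probe sets do not measure relative messenger abundance, so a dim probe set does not show that its gene is little transcribed: Rpl27a, Rpl30 and Rps15 encode standard ribosome components, and their probe sets were among the 25% of genes with the lowest mean, below 3.56, which were not tested. With the copies Rpl10l and Rpl32l these were the 5 members left out, leaving 59 tested.

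The bright members varied little between animals. Over the 32 members with a mean of 8 or more the median SD of the wild-type arrays was 0.065, against 0.138 for all genes at 8 or more. The median gap between both knockout arrays was 0.134 against 0.261. These sets differ in level, since 24 of the 32 members but 118 of the 925 other genes had a mean of 10 or more. Spread at a matched level was not compared. Over the 32 dimmer members the median wild-type SD was 0.184. Rps6, the small-subunit protein phosphorylated by S6 kinases, read 12.85, 12.87 and 12.83 in wild-type arrays 1 to 3 and 12.87 in both knockout arrays, a difference of 0.02 with a 95% interval of -0.09 to 0.13. Ties between arrays were common in the deposited signals and narrow the spread of such genes: 37 of the 64 members had 5 distinct values, 14 had 4, 11 had 3 and 2 had 2.

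Between genotypes no ribosomal protein gene passed the test, and the signals leaned upward in the knockout. With limma, 0 of the 59 had an adjusted p below 0.05, as for the background of 0% of 16635 genes, and their adjusted p ran from 0.402 to 1.0. In this fit with both knockout arrays, 15 members were higher (background 5.05%) and 0 lower (background 2.59%) at an unadjusted p below 0.05. Both counts include knockout array 2, without which the median difference was smaller, as given below. In 19 of 59 (32.2%) each knockout signal exceeded every wild-type signal, against a background of 11.6%, and in 3 (5.08%) each was below every wild-type signal, against 6.32%. Ties between arrays can lower such counts, and only 36.36% of all genes tested had 5 distinct values. Among genes with 5 distinct values 17 of 35 members (48.6%) were higher and 1 lower (2.86%), against 20.4% and 12.2% of all such genes. The difference was above 0 in 44 of 59 (74.6%), against 57.1% of all genes tested, and the median was 0.13 against 0.04. Without knockout array 2 the difference was above 0 in 42 of 59, against 56.7%, and the median was 0.06 against 0.03. With each array centred on its median the split was 19 higher (background 13.2%) and 6 lower (background 9.95%). After quantile normalization it was 19 higher (background 21%) and 5 lower (background 9.61%), and the median difference was 0.065 against 0.051 for all genes. Bright genes separate more often: at a mean of 8 or more, 13 of 32 members (40.6%) were higher in both knockout arrays and 2 lower (6.25%), against 20.8% and 12.2% of all genes that bright. Without knockout array 2 that count was 14 (43.8%) against 40.8%, and 6 lower (18.8%) against 22.5%, near the background. At a mean of 10 or more, 9 of 24 members (37.5%) were higher in both knockout arrays, against 30.5% of the 118 other genes that bright. Fewer cells of a type and less RNA per cell cannot be told apart in such bulk values, nor can an equal shift of all transcripts be seen after the authors' normalization.

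**Figure D1:**
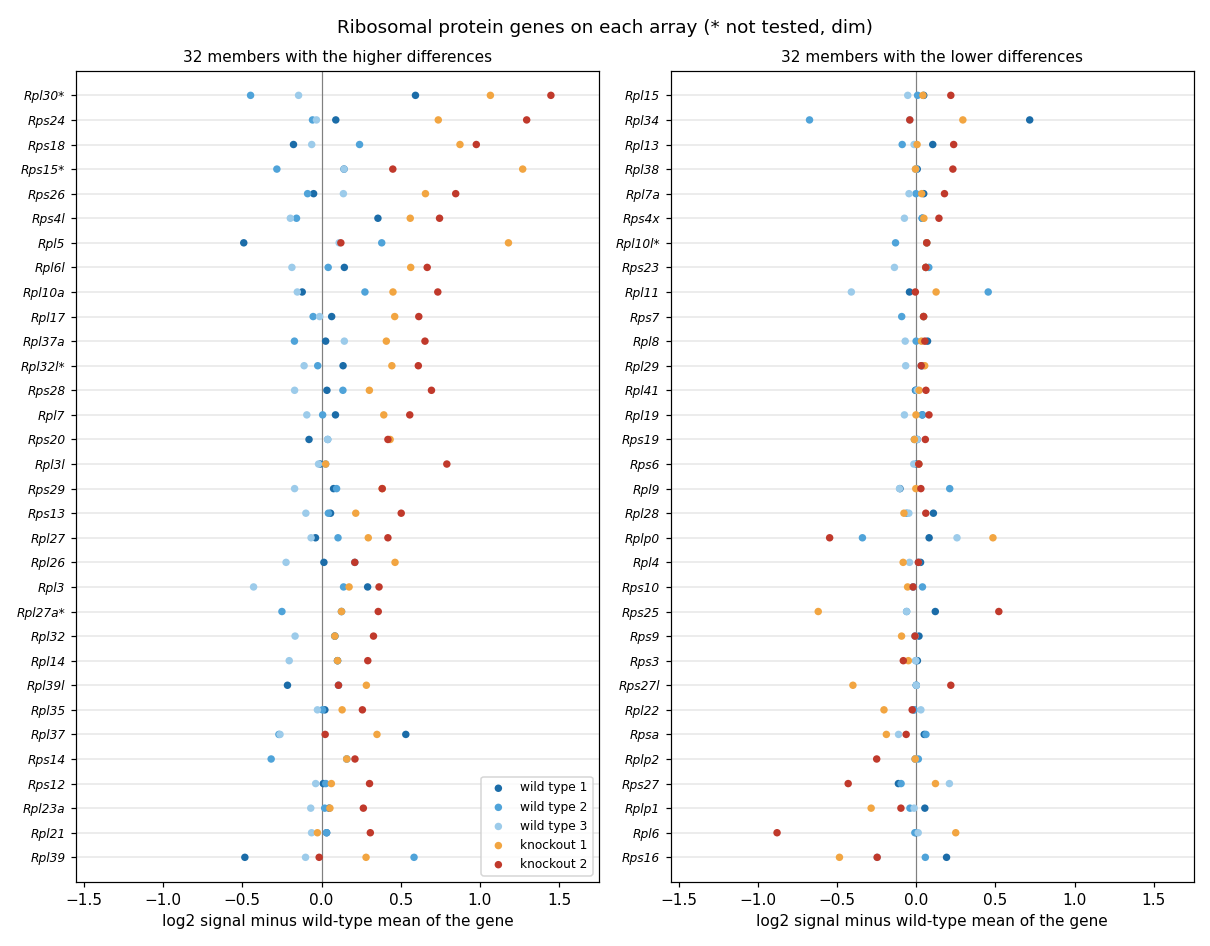
Signal of each of the 64 ribosomal protein genes on every array, as log2 signal minus the gene's wild-type mean (x axis), with 1 row a gene ordered by the difference and 1 colour an array; asterisks mark the 5 dim genes not tested. In 19 of the 59 tested genes both knockout points lie right of all wild-type points, most widely in Rps24 and Rps18.

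Among the members tested, small-subunit genes had the 3 largest differences. Rps24, mutated in some families with Diamond-Blackfan anaemia, read 8.48, 8.33 and 8.36 in wild type and 9.12 and 9.68 in the knockout, a difference of 1.02 (SE 0.19, adjusted p = 0.445). Rps18, of the head of the subunit, read 8.08, 8.50 and 8.19 against 9.13 and 9.23, a difference of 0.93 (SE 0.15, adjusted p = 0.415). Rps26, which lines the exit of the messenger channel, read 9.86, 9.82 and 10.04 against 10.56 and 10.75, a difference of 0.75 (SE 0.11, adjusted p = 0.408). In all 3 the knockout arrays stood above every wild-type array by more than the wild-type range, and knockout array 2 was the higher one. Without that array the differences were 0.74, 0.87 and 0.66.

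Rps20, at the subunit head, had a smaller but tighter separation. It read 5.37, 5.49 and 5.49 in wild type and 5.88 and 5.87 in the knockout, a difference of 0.43 (SE 0.06), and shared with Rpl17 the lowest adjusted p of the members, 0.402. Rps28 read 9.78, 9.88 and 9.57 against 10.04 and 10.44, a difference of 0.50 (SE 0.17, adjusted p = 0.620). In Rps28 knockout array 1 lay only a little above the highest wild-type array, and without knockout array 2 the difference was 0.30. Rps29, a zinc-binding protein, and Rps13 differed by 0.38 and 0.36, also without overlap. Without knockout array 2 Rps13 differed by 0.22. Rps16, on a dim probe set, had the lowest difference of the members, -0.37, with knockout array 2 level with wild-type array 3. Of 23 small-subunit members tested, 15 were above 0, 10 were higher (43.5%) and 1 lower (4.35%) in both knockout arrays, beside the 11.6% and 6.32% of all genes, and the median difference was 0.06. Without knockout array 2, 10 were higher (43.5%) and 7 lower (30.4%), beside 31.1% and 16.6%.

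Of 33 large-subunit genes tested, 29 were above 0, beside 57.1% of all genes, 9 were higher (27.3%) and 1 lower (3.03%) without overlap, beside 11.6% and 6.32%, and the median difference was 0.14. Without knockout array 2, 14 were higher (42.4%) and 3 lower (9.09%), beside 31.1% and 16.6%. Differences between the subunits were not tested. Rpl17, near the exit of the nascent chain, read 7.83, 7.72 and 7.76 in wild type and 8.23 and 8.38 in the knockout, a difference of 0.54 (SE 0.07). Rpl7 read 10.77, 10.68 and 10.58 against 11.07 and 11.23, a difference of 0.47 (SE 0.09, adjusted p = 0.435). Both genes kept the groups apart by more than the wild-type range.

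Rpl10a, of the L1 stalk by which transfer RNA leaves, read 6.70, 7.09 and 6.66 in wild type and 7.27 and 7.55 in the knockout, a difference of 0.59 (SE 0.19, adjusted p = 0.581). Here wild-type array 2 came close to knockout array 1. Rpl37a, a zinc-binding protein, differed by 0.53 and Rpl27 by 0.36, both without overlap. Rpl6l, the RefSeq pseudogene, differed by 0.62, with wild-type signals of 8.54 to 8.87 and knockout signals of 9.29 and 9.39. Without the RefSeq pseudogenes the count was 17 higher (29.8%) and 3 lower (5.26%) of 57, beside 11.6% and 6.32% of all genes.

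Several bright large-subunit genes stayed within a narrow band on the probe sets used. Rpl8, Rpl19, Rpl29 and Rpl41 differed by 0.04 each and Rpl28 by -0.01. Rpl41, the shortest ribosomal protein, separated the groups by a small margin, at 12.43 and 12.47 against 12.41 to 12.42. Its next probe sets by level, with means of 11.44, 11.20 and 10.89, differed by 0.17, 0.23 and 0.44, also without overlap. The dimmest differed by -0.55, with overlap. Rpl35 read 11.33 to 11.38 in wild type and 11.49 and 11.62 in the knockout, a difference of 0.19 (SE 0.06, adjusted p = 0.566).

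The 3 stalk genes and Rpsa had differences below 0 on the probe sets used, none past the test. Rplp1 read 13.09, 13.00 and 13.03 in wild type and 12.76 and 12.94 in the knockout, a difference of -0.19 (SE 0.08, adjusted p = 0.623). It was 1 of the 3 members with both knockout arrays below all wild-type arrays, with Rpl22, a protein dispensable for most translation but needed by developing T cells, at -0.12 and Rps3, of the messenger entry, at -0.07. A second, dimmer Rplp1 probe set differed by 0.30, and the mean of its probe sets by 0.05. Rplp2, on a dim probe set, differed by -0.13, and Rpsa, which also serves as a laminin receptor precursor, by -0.13. Rplp0, the scaffold of the stalk, read 6.83, 6.41 and 7.01 against 7.23 and 6.20, so its groups overlapped and the difference of -0.03 (SE 0.39) is the mean of knockout arrays on either side of wild type. Its second probe set differed by 0.14.

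**Figure D2:**
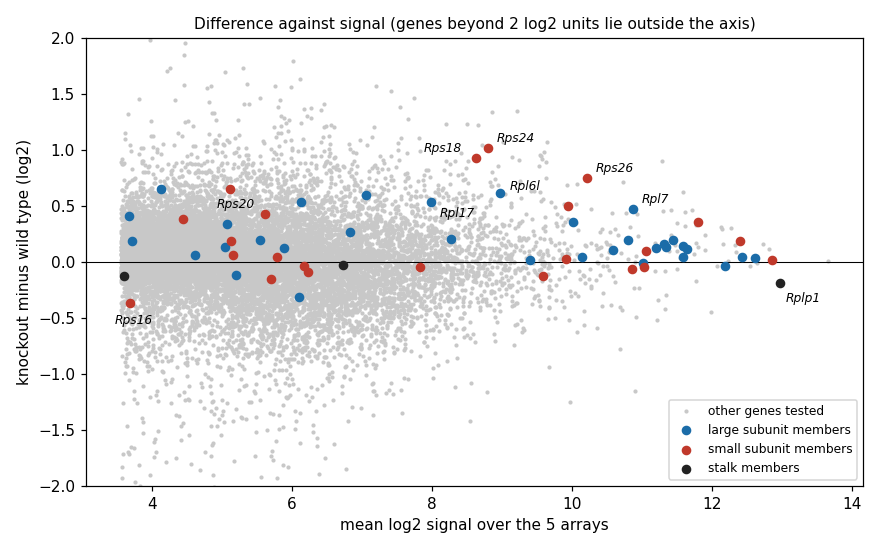
Knockout minus wild type in log2 units (y axis) against the mean log2 signal over the 5 arrays (x axis) for the genes tested; large-subunit, small-subunit and stalk members are coloured and other genes are grey. Rps24, Rps18 and Rps26 lie highest among the bright members and Rplp1, the member with the highest signal, lies below 0 at -0.19.

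Some members differed more between both knockout arrays than between genotypes. Rps25, a protein needed for initiation at several viral internal entry sites, read 7.98, 7.80 and 7.80 in wild type but 7.24 and 8.38 in the knockout. Rpl6 read 6.22 to 6.24 in wild type, 6.48 in knockout array 1 and 5.35 in knockout array 2. Rpl5 and Rpl11, which with 5S RNA bind Mdm2 when ribosome assembly is disturbed, had wide wild-type ranges of 3.39 to 4.26 and 4.18 to 5.04. In Rpl5 knockout array 1 read 5.06, above wild type, and knockout array 2 lay within the wild-type range. In Rpl11 the knockout signals of 4.71 and 4.58 both lay within it. Rpl34 had the widest wild-type range of the members, 5.16 to 6.55, and knockout signals of 6.13 and 5.79. The untested Rpl30 read 3.42, 2.38 and 2.68 in wild type and 3.89 and 4.27 in the knockout, and Rps15 read 2.31 to 2.73 against 3.86 and 3.04. Both were higher in each knockout array. They were left out by the filter on dim genes, and over all probe sets without that filter they differed by 1.26 (SE 0.38) and 0.86 (SE 0.32), with adjusted p of 0.619 and 0.640.

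Among paralogous copies, Rps27l, a copy of Rps27 known as a p53 target, read 6.26 on all wild-type arrays and 5.86 and 6.48 in the knockout arrays. Rpl3l, a copy of Rpl3 used in striated muscle, read 3.49 to 3.54 in wild type and in knockout array 1 and 4.30 in knockout array 2. Rpl39l, a copy of Rpl39 used mainly in the testis, differed by 0.20 with overlap. Rps4l had both knockout arrays above wild type, at 5.42 and 5.60 against 4.66 to 5.21, with an adjusted p of 0.604. Of the X-linked members, Rps4x differed by 0.10, without overlap, and Rpl39 by 0.13, with overlap.

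The upward lean of the bright members came mainly from knockout array 2. Over the 32 members with a mean of 8 or more, the median deviation from the wild-type mean was 0.04 in knockout array 1 and 0.22 in knockout array 2. The 925 other genes that bright gave 0.06 and -0.01. Knockout array 2 was the single highest array in 22 of the 32 (68.8%), against 22.8% of the 925, and wild-type array 3 the single lowest in 20 (62.5%), against 11.1%. In the dimmer members tested the order was turned, with 0.25 in knockout array 1 and 0.11 in knockout array 2. Array 2 of the knockout is also the one with the Xist signal, and whether the same cells or library account for both was not tested.

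**Figure D3:**
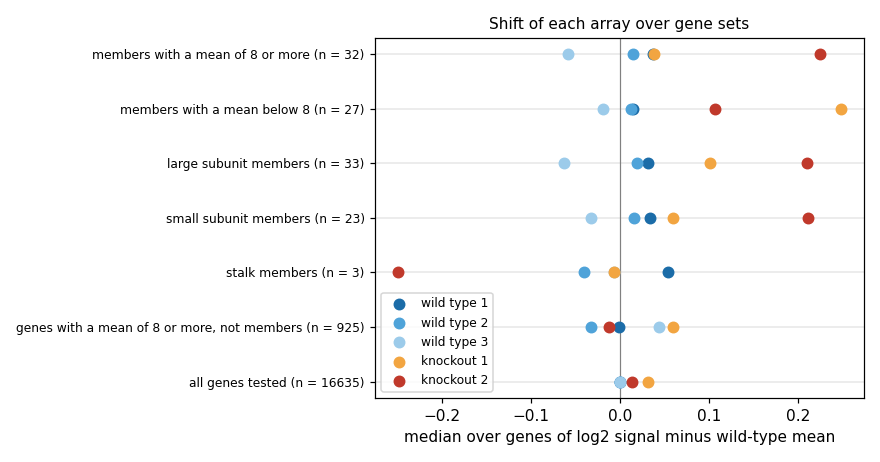
Median over genes of log2 signal minus the gene's wild-type mean (x axis, log2 units), 1 point an array, for ribosomal protein genes by level and by subunit and for other genes. For members with a mean of 8 or more knockout array 2 lies at 0.22 and the other 4 arrays lie between -0.06 and 0.04.

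Leaving out 1 knockout array changed the calls, under the assumption that the lone array varies like the wild-type arrays. Without knockout array 2 the median difference was 0.06, the members without overlap were 25 higher (background 31.1%) and 11 lower (background 16.6%), and 1 member was called, Rps27l at -0.40 (background 2.34%). Without knockout array 1 the median was 0.18, the members without overlap were 33 higher (background 30.4%) and 7 lower (background 23.6%), and 6 members were called (background 6.44%). Those were Rps24 at 1.29, Rpl3l at 0.79, Rpl38 at 0.23 and Rps27l at 0.22, all higher, and Rpl6 at -0.88 and Rplp2 at -0.25. Rps27l thus had opposite signs in the fits with 1 knockout array. In such fits a gene's own error comes from the wild-type arrays alone. Their SD was 0.0 in Rps27l, 0.006 in Rpl38, 0.011 in Rpl6 and Rplp2, 0.024 in Rpl3l and 0.079 in Rps24. The median over all genes tested was 0.145. Rpl3l and Rplp2 were also dim, with means of 3.67 and 3.60 near the filter at 3.56. Without wild-type array 3 the lower count was 6 in place of 3, while the share over all genes was 9.07% in place of 6.32%.

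Other probe sets of the same genes bear on how far a difference belongs to the gene. The 64 members had 104 probe sets, 24 of them had several, and in 7 of these the probe sets differed in sign. Rps24 had a second probe set with no separation, at 6.86 to 7.52 in wild type and 7.28 in both knockout arrays, and another that differed by 1.02, at 5.70 to 5.95 against 6.58 and 7.07. Rps18 had others at 0.14 and 0.79, and those of Rps26, Rps28, Rps20, Rpl7 and Rpl27 differed by 0.53, 0.57, 0.48, 0.62 and 0.38, all in the direction of the one used. Those of Rps26 and Rps28 were dim, with means of 3.37 and 3.05, below the filter at 3.56. That of Rpl7 had a mean of 4.44, and in that of Rpl27 the groups overlapped.

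In a few genes a dimmer probe set stood far from the bright one. The bright probe set of Rps9, of the messenger entry, differed by -0.05, while its second read 7.34, 7.08 and 6.99 in wild type and 8.55 and 8.50 in the knockout. For Rpl4, of the exit tunnel, the bright probe set read 12.16 to 12.23 in wild type and 12.12 and 12.21 in the knockout. Its second read 7.88, 8.16 and 7.50 against 6.26 and 6.29, a difference of -1.57. The 5 probe sets of Rpl41 ran from -0.55, on the dimmest at a mean of 5.125, to 0.44, on a bright one at a mean of 10.89. Which transcript, splice form or pseudogene each of these probe sets reads is not given in the sources used here. In Rps12, 6 probe sets held identical values, so they count as 1 measurement.

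**Figure D4:**
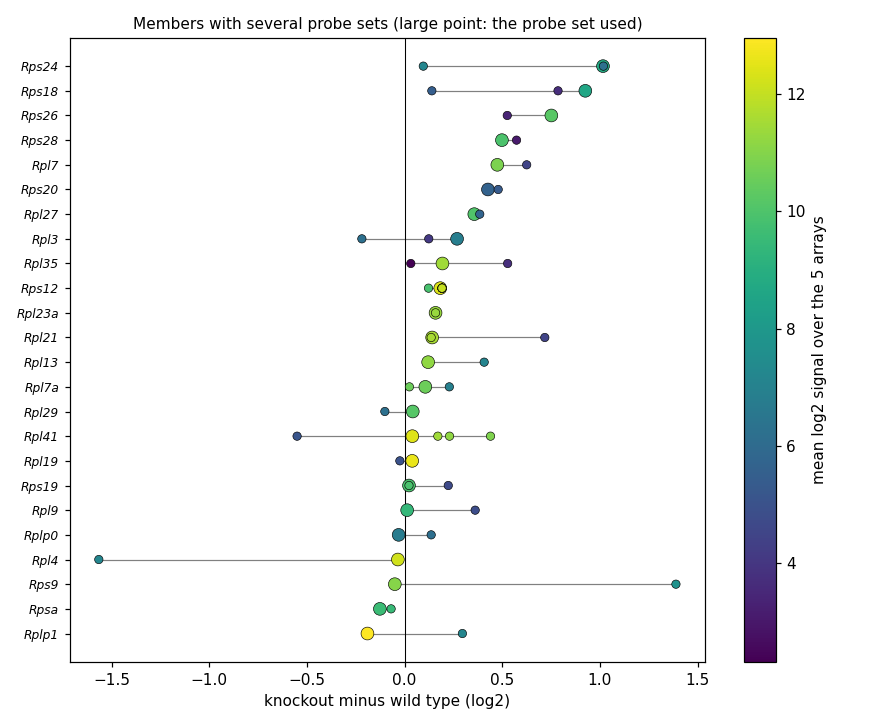
Knockout minus wild type in log2 units (x axis) for every probe set of the 24 members with several, coloured by the mean log2 signal over the 5 arrays; the large point is the probe set used for the gene. Rps9 and Rpl4 have the widest spread, with a second probe set at 1.39 and -1.57.

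Genes annotated as ribosomal protein pseudogenes were read beside the members, since processed copies can share sequence with them. Of 10 tested, 3 were higher in both knockout arrays and 0 lower, beside 11.6% and 6.32% of all genes, and the median difference was 0.24. Rps15a-ps5 read 8.58, 8.66 and 8.50 in wild type and 9.45 and 9.86 in the knockout, a difference of 1.07 (SE 0.15, adjusted p = 0.402). Rpl15-ps6 read 8.67, 8.67 and 8.68 against 9.21 and 9.51, a difference of 0.69 (SE 0.11, adjusted p = 0.415), while Rpl15 itself differed by 0.13 with overlap. Reads of the parent gene by these probe sets were not tested.

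In 6 lists of other translation genes the medians lay between 0.00 and 0.06, and no gene in them passed. The median difference was 0.00 over 13 elongation factors and other messengers with the oligopyrimidine motif, 0.01 over 26 initiation factors, 0.02 over 49 ribosome assembly factors, 0.02 over 18 subunits and factors of RNA polymerase I, 0.06 over 16 regulators and 0.06 over 67 mitochondrial ribosomal proteins. The counts without overlap were 2 higher and 3 lower, 2 and 6, 2 and 2, 2 and 1, 2 and 2, and 9 and 2 in that order, beside 11.6% and 6.32% of all genes. Differences between lists were not tested. Rps3a1, which encodes a small-subunit protein outside the symbol rule, read 12.03, 12.09 and 11.95 in wild type and 12.14 and 12.50 in the knockout, and Fau, whose product is cut to give another, differed by 0.09. Rpl7l1, a gene related to Rpl7, read 4.39, 5.29 and 4.40 against 3.60 and 4.29, a difference of -0.74 (SE 0.41, adjusted p = 0.623), also without overlap.

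Single genes of these lists differed in both directions. Tpt1, an abundant messenger with the oligopyrimidine motif, read 9.33, 9.29 and 8.92 in wild type and 9.87 and 10.21 in the knockout, a difference of 0.86 (SE 0.19, adjusted p = 0.473). Eif4b, a cofactor of the cap-binding helicase, read 8.80, 8.35 and 8.21 against 7.48 and 7.58, a difference of -0.92 (SE 0.21, adjusted p = 0.478). Ubtf, which activates ribosomal RNA genes, read 7.25, 7.31 and 7.29 against 6.76 and 6.34, a difference of -0.73 (SE 0.15, adjusted p = 0.453). Groups were apart in all 3. Rps6kb2, encoding an S6 kinase, and Mxd4, a MYC antagonist, differed by -0.78 and -0.67, and the initiation subunits Eif3b and Eif3m by -0.77 and 0.42.

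Markers of some other cells had higher signals in the knockout arrays, though none of those tested passed. Of 14 lung epithelium markers 12 had a higher mean in the knockout and 5 were higher in both knockout arrays. Among the 11 tested, 4 were higher and 0 lower in both, beside 11.6% and 6.32% of all genes tested. The summed linear signal of the 14 was 309.3 to 344.7 in wild type, 1219 in knockout array 1 and 410.0 in knockout array 2. In knockout array 1 Scgb1a1, Bpifa1 and Scgb3a2 read 8.81, 8.52 and 6.21, against up to 5.005, 3.22 and 2.20 in wild type. Cdh1 and Ager lay within their wild-type ranges there. In knockout array 2 Bpifa1 and Scgb3a2 read 3.22 and 2.07. Krt19 and Foxj1 lay below the median gene on every array. Of 12 endothelial markers, 10 of them tested, 8 had a higher mean, and 5 were higher and 2 lower in both knockout arrays. The sum of the 12 was 684.4 to 729.3 against 899.6 and 927.2, with Kdr, Tek and Emcn below the median gene throughout. The summed markers of fibroblasts, B cells, macrophages and dendritic cells, and neutrophils had at least 1 knockout array within the wild-type range, and those of T cells ran from 1250 to 1409 against 1090 and 1263. The part of these cells in the ribosomal differences was not tested.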

How the data were processed

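Biotin-labelled total RNA from 5 ILC2 samples was read on Affymetrix arrays. The authors deposited log2 signals per probe set, and the submitters' processing notes name RMA and Affymetrix Expression Console; versions and settings are not given in the sources used here. Of 41345 probe sets, 23521 had 1 symbol, 1814 several and 16010 none. The probe set with the highest mean stood for each of 22180 genes, and the dimmest 25% were left out. Groups were compared over 16635 genes with limma 3.58.1 in R 4.3.3 (lmFit, eBayes, Benjamini-Hochberg, threshold 0.05). The files name no genome build; names and sequences came from RefSeq GRCm38.p6. Simulated arrays of 16635 genes had normal noise based on each gene's own SD, without ties, and 50 genes were changed at each size. The fit recovered 34% of genes changed 2-fold, 68% changed 4-fold, 76% changed 8-fold and 98% changed 16-fold. It called 9 of 16435 unchanged genes. Changes below 2-fold were not simulated, so these rates do not cover differences as small as those of most members. The number of arrays limits precision: an exact permutation over the 10 splits has a smallest p of 0.1 and was not used.

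The members and lists were chosen with earlier results of these data known. Named members were the stalk genes, Rpsa, paralogous copies, X-linked members, up to 14 in each direction with an unadjusted p below 0.05 and no overlap, and the 4 widest wild-type ranges and the 4 widest knockout gaps. From each translation list and the pseudogenes up to 3 genes with the smallest p were taken. Other genes were named after their values were seen. Alternatives covered the filter, probe sets per gene, normalization, weights of arrays, variance model, a block for the replicate number and leaving out each array. Leaving out genes with a mean below 8 and leaving out pseudogenes were added after seeing the data.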

Additional observations from a re-analysis of the deposited data

How the results depend on the processing

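With 3 and 2 arrays, small differences could not be resolved, and dim or tied probe sets limit single genes further. Of 28 named members 8 changed sign under some alternative; the 14 named as higher were chosen for groups that do not overlap, which fixes their sign when 1 array is left out. No member was called in any fit that kept both knockout arrays. Leaving out 1 array gave 0 to 6 members called, median differences of 0.062 to 0.178, 19 to 33 members higher and 3 to 11 lower without overlap, while the shares over all genes ran from 15% to 31.1% higher and 8.67% to 23.6% lower.

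Quantile normalization of the deposited values moved the median difference to 0.065, against 0.051 for all genes. It gave 5 of 59 members lower without overlap, beside 9.61% of all genes. Median centring gave 6, beside 9.95%. Without knockout array 2 the median was 0.062. With the mean of all probe sets Rplp0 turned to 0.0525, Rplp1 to 0.0526 and the assembly helicase gene Ddx21, otherwise at 0.17, to -0.0313. Rplp0 was 0.0011 after quantile normalization. With 1 array left out, differences that changed sign ran from -0.55 to 0.48 in Rplp0, -0.40 to 0.22 in Rps27l, -0.11 to 0.43 in Rpl39, -0.21 to 0.48 in Rpl34, -0.15 to 0.29 in Rpl11, -0.62 to 0.52 in Rps25 and -0.88 to 0.25 in Rpl6. The causes were not tested.

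The replicate numbers do not pair the animals as far as the labels say, and the deviations of same-numbered arrays correlated at -0.046 and 0.143. With the replicate number as a block the median difference was 0.095 and 0 members were called, and 7 in place of 15 members were higher at an unadjusted p below 0.05, beside 3.99% of all genes. Under the block Rplp0 was 0.098 and Rpl11 -0.15.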
